A study of Mus musculus with 18 samples.

Results

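The YAP, TAZ and TEAD genes were examined in mouse lung tumors of 3 genotypes. The 10 genes were Yap1, which encodes YAP, Wwtr1, which encodes TAZ, the DNA-binding factors Tead1, Tead2, Tead3 and Tead4, the TEAD cofactor Vgll3, the YAP inhibitors Lats2 and Amotl2, and the target gene Ankrd1. They were taken by name, with no measured value in the rule, from 46078 genes counted by RNA-seq. Earlier results of these data were, however, known when they were chosen. In ATAC-seq, which counts reads where a transposase could cut open chromatin, every peak from 5000 bp upstream of a gene to its end was taken, which gave 111 of 111664 peaks. Tead1 held 42 of them, Wwtr1 13, Lats2 and Tead4 12 each, Vgll3 11, Yap1 6, Tead3 5, Amotl2 and Ankrd1 4 each and Tead2 2.

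All mice carried conditional alleles of Rb1, p53 and another retinoblastoma family gene, given as Rbl1 in the sample labels and as Rbl2 in the Results of the study. Small cell lung cancer (SCLC) was induced at 8 weeks of age by adenoviral Cre in the airways, and tumors were taken 28 weeks later from 3 independent animals of each genotype. TKO mice had these alleles alone. TKO;Carm1KO mice (CARM1 knockout) also had a conditional allele of Carm1, a protein arginine methyltransferase, and TKO;NfibR388K mice (NFIB mutant) had a germline knock-in that replaces the arginine of NFIB that CARM1 methylates with lysine. The promoter driving Cre is not given in the sources used here. The methods describe sorting by a tdTomato reporter that Cre switches on, the Results speak of tumor biopsies and the ATAC-seq methods of cell lines, and which of these gave the libraries is unsettled. Each genotype had 3 libraries per assay, with 15848866 to 20915057 reads counted on genes and 26917178 to 47653979 counted on peaks per library. CPM below are read counts over the library total, scaled by edgeR's TMM method, and 3 counts, taken as the limit of detection for counting error only, came on this scale to 0.131 to 0.203 CPM in RNA libraries and 0.0576 to 0.127 CPM in ATAC-seq libraries.

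The labelled cell type was checked against marker genes. The summed level of 12 neuroendocrine genes, which mark SCLC cells, ran from 1818 to 4114 CPM over the TKO libraries, and among the mutants it was 1970 CPM for CARM1 knockout replicate 3 and 33.7 to 189 CPM for the other 5. In that replicate Calca alone had 833 CPM, against 5.14 to 22.0 CPM in TKO. There Resp18 was also above the TKO range and Chga and Scg2 were within it. The other genes of the list were below it, such as Insm1 at 83.9 CPM against 254 to 326 CPM in TKO. The 8 fibroblast genes summed to 91.7 to 298 CPM in TKO and 14929.5 to 28413 CPM in the 6 mutant libraries, and the 6 smooth muscle genes to 3.99 to 9.85 CPM and 125 to 1969 CPM. The 10 leukocyte genes summed to 3.63 to 58.9 CPM in TKO, 254 to 2829 CPM in CARM1 knockout and 81.1 to 1081 CPM in NFIB mutant libraries, with Cd3e at 3 counts or fewer in each library. Lung epithelium, with 10 genes, summed to 286 to 632 CPM in TKO, 3.32 to 757 CPM in CARM1 knockout and 3.56 to 2632 CPM in NFIB mutant libraries. Of these genes Nkx2-1 alone had 236 to 601 CPM in TKO and 0.191 to 102 CPM in the mutants. The highest sum was that of NFIB mutant replicate 1, where Sftpb alone had 1737 CPM. Mesothelium with 5 genes was spread across all genotypes at 0.576 to 810 CPM. Endothelium with 6 genes stayed at or below 73.9 CPM, with Cldn5 at 3 counts or fewer in each library. The part that cell composition plays in the values below was not tested, and in bulk libraries fewer cells of a type cannot be told apart from less RNA per cell. Carm1 RNA was 44.5 to 103 CPM in TKO and 50.8 to 79.1 CPM in CARM1 knockout (log2 fold change -0.34, adjusted p = 0.41, edgeR), and since the deleted exons are not counted separately these values cannot check that genotype. Nfib fell by 2.06 and 2.49 on the log2 scale in CARM1 knockout and NFIB mutant tumors (adjusted p = 0.00799 and 0.00325, edgeR).

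In the Hippo pathway, kinases of the MST family activate those of the LATS family, which phosphorylate YAP and TAZ and hold them in the cytoplasm. When this brake is released, both coactivators enter the nucleus, where they have no DNA-binding domain of their own and act by binding TEAD factors. TEAD proteins recognize the letters GGAATG, often written from the other strand as CATTCC. Loss of YAP is a known trait of neuroendocrine SCLC, and YAP and TAZ are typical of non-neuroendocrine lung cells and of stroma.

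The promoters of 8 of the 10 genes were in the RefSeq promoter table (GRCm38.p6, 300 bases from 250 before to 50 after a start), in 12 entries, and Tead1 and Tead4 were not. GGAATG, on either strand, occurred in at least 1 entry of 7 of these 8 genes, all but Tead2, and in 9 of the 12 entries. Of the 11396 genes of the table that were tested for RNA, 14.7% held these letters, and so did 18.9% of the 2059 genes called higher in both mutants. Of all 32851 promoter entries 14.7% held them. The other letters searched were TGANTCA, which AP-1 binds, TTGGCA, an NFI half-site, and CAGCTG, an E-box, each on both strands. In the promoters of the 8 genes TGANTCA and CAGCTG did not occur, against 6.42 and 18.2% of the tested genes, and TTGGCA occurred in those of Ankrd1 and Lats2, against 13.6%. A match is a description of the letters and does not show binding. The 250 bases before the start are shown for both coactivators, for the target gene and for the cofactor, 5′ to 3′ on the gene's strand, with the TEAD and NFI letters in capitals.
Yap1 promoter, chr9:8004597-8004846 (minus strand, GRCm38): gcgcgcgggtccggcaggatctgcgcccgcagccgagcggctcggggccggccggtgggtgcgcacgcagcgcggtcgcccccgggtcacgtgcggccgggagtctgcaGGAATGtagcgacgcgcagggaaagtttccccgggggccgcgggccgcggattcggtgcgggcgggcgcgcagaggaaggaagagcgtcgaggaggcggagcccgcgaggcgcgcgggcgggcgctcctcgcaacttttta
Wwtr1 promoter, chr3:57575911-57576160 (minus strand, GRCm38): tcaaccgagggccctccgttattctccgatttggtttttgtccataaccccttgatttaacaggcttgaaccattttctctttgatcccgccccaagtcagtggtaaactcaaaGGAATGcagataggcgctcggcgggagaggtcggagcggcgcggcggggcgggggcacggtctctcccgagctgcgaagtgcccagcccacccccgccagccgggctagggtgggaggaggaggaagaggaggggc
Ankrd1 promoter, chr19:36119845-36120094 (minus strand, GRCm38): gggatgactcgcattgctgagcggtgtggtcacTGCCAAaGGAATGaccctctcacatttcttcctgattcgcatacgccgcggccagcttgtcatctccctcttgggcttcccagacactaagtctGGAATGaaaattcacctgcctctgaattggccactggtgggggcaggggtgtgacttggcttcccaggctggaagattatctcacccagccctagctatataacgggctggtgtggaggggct
Vgll3 promoter, chr16:65814939-65815188 (plus strand, GRCm38): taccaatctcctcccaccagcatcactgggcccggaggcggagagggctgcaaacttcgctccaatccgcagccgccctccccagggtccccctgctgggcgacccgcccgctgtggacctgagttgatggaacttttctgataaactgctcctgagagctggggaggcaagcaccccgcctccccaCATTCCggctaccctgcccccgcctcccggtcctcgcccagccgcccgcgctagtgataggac

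The Yap1 and Wwtr1 promoters each hold GGAATG 1 time, starting at base 110 and base 115 of the sequences shown. The Ankrd1 promoter holds it 2 times, at bases 41 and 128, next to an NFI half-site in reverse at base 34. In the Vgll3 promoter the letters run on the other strand, at base 188.

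RNA of 9 of the 10 genes rose in both mutants, by 4.93-fold to 412-fold, and Tead1 alone was not called. Calls required an adjusted p below 0.1 and a change of 0.8 or more in size on the log2 scale, from edgeR's quasi-likelihood test over 15514 genes in 1 model of all 9 libraries. Of all genes tested, 20.5% were called higher in CARM1 knockout tumors and 22.3% in NFIB mutants, and 18.3 and 23.5% were called lower, a direction that none of the 10 genes took. The median log2 fold change of the 10 genes came to 4.50 and 4.93 in the same order, beside -0.03 and -0.05 over all genes tested. In the 9 called genes every mutant library lay above every TKO library, as it did in 22.3% of the genes tested. Both comparisons share the 3 TKO libraries, and the 10 genes were chosen with earlier results of these data known. Without CARM1 knockout replicate 3, the mutant library with neuroendocrine markers, 9 of the 10 genes were again called higher in that genotype. With scaling by library totals only, the median of all genes shifted by -0.27 and -0.33 and the share of calls that were higher went from 52.9 to 39.4% and from 48.7 to 35.8%, while 9 of the 10 genes were again called higher in each mutant.

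**Figure D1:**
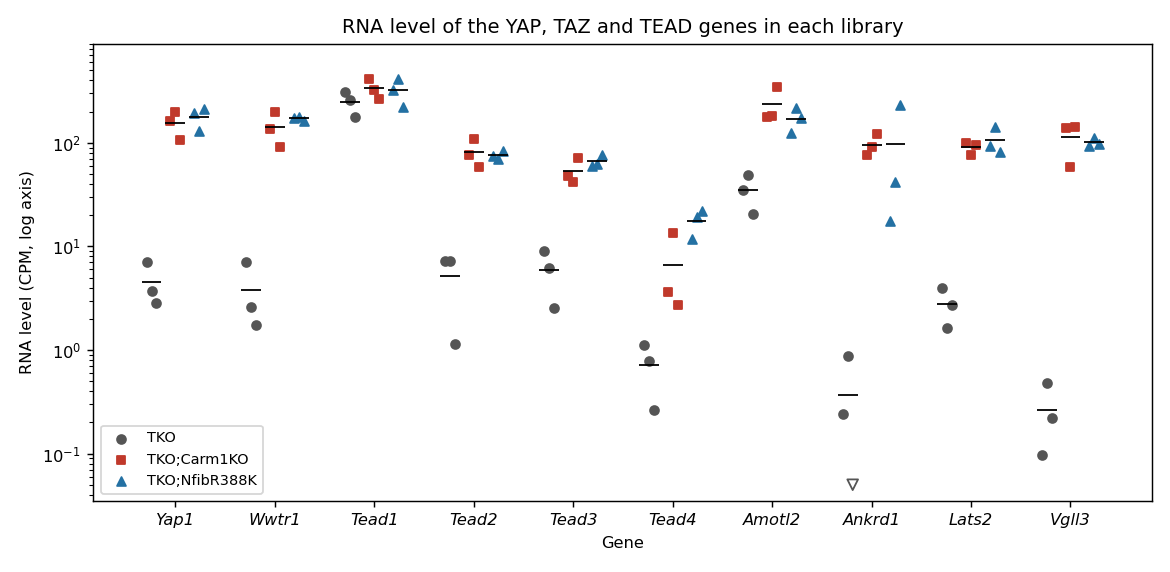
RNA level of each gene in each of the 9 libraries, in CPM on a log axis, with 1 point per library and a short line at the mean of each genotype; the open triangle marks TKO replicate 3, where Ankrd1 had 0 counts. Tead1 is the only gene whose TKO points lie among those of the mutants.

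Yap1 (ENSMUSG00000053110, chromosome 9, 7931999 to 8004596, minus strand) had 7.01, 3.67 and 2.84 CPM in TKO, 162, 197 and 106 CPM in CARM1 knockout and 193, 129 and 213 CPM in NFIB mutant libraries. Each mutant library was far above each TKO library, including CARM1 knockout replicate 3, which had the lowest mutant value. Yap1 RNA thus rose by 5.10 (standard error, SE, 0.45, adjusted p = 0.000497) and 5.31 (SE 0.46, adjusted p = 0.000343) on the log2 scale.

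Wwtr1 (ENSMUSG00000027803, chromosome 3, 57455649 to 57575910, minus strand) had 7.01, 2.58 and 1.73 CPM in TKO, 135, 198 and 91.6 CPM in CARM1 knockout and 175, 179 and 163 CPM in NFIB mutant libraries. TKO replicate 1 was the highest TKO library for both coactivators. Its log2 fold changes were 5.23 (SE 0.59, adjusted p = 0.0011) and 5.51 (SE 0.60, adjusted p = 0.000789), and without TKO replicate 1 they were 6.05 and 6.33. Per kilobase of exon, Wwtr1 exceeded Yap1 in every library, by 1.18 to 1.94 times in TKO, 1.62 to 1.95 times in CARM1 knockout and 1.47 to 2.68 times in NFIB mutant libraries. The ratios of the 3 genotypes overlapped, while both levels rose. Exon length was that of all annotated exons of a gene together, 9257 bp for Yap1 and 4779 bp for Wwtr1. Without this division Yap1 had the higher mean, at 4.51 against 3.77 CPM in TKO. The means were 155 against 142 CPM in CARM1 knockout and 179 against 172 CPM in NFIB mutant libraries. Which of the coactivators ranks higher therefore depends on the lengths used.

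Genes with the most similar pattern over the 9 RNA libraries were ranked by Pearson's r of log2 CPM, as a description. For Yap1 these were Rab34, a small GTPase gene (r = 0.996), Wwtr1 (0.995), Pdlim1 (0.993), Pon3 (0.993) and Fkbp10, which encodes a collagen chaperone (0.993). For Wwtr1 they were Tnfrsf1b, a TNF receptor gene (0.996), B4galt1 (0.995), Yap1 (0.995), Rhbdf1 (0.994) and Pon2 (0.994). The pattern was common, since 701 of the 15459 other named genes tested had an r over 0.95 with Yap1 and 653 with Wwtr1. The 9 points fall into TKO and mutant libraries with a wide gap between them.

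Among the TEAD factors, Tead1 (ENSMUSG00000055320, chromosome 7, 112679318 to 112906807, plus strand) had 307, 257 and 176 CPM in TKO, 414, 327 and 265 CPM in CARM1 knockout and 326, 411 and 223 CPM in NFIB mutant libraries. The groups overlapped. Its log2 fold changes were 0.44 (95% interval -0.25 to 1.14, adjusted p = 0.272) and 0.38 (95% interval -0.32 to 1.07, adjusted p = 0.335), which leaves room for a rise of at most 1.14 on the log2 scale.

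Tead2 (ENSMUSG00000030796) had 7.21, 7.22 and 1.15 CPM in TKO, 76.9, 109 and 59.0 CPM in CARM1 knockout and 73.9, 70.3 and 82.7 CPM in NFIB mutant libraries. TKO replicate 3 was the lowest, and no mutant library came near the TKO range. Tead2 RNA rose by 3.97 (SE 0.65, adjusted p = 0.00398) and 3.86 (SE 0.64, adjusted p = 0.00336) on the log2 scale. The gene shares 13 exonic bases with Cd37 on the opposite strand, a gene with at most 212 counts in a library.

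Tead3 (ENSMUSG00000002249) rose from 9.08, 6.25 and 2.57 CPM in TKO to 47.9, 41.5 and 70.9 CPM in CARM1 knockout and 59.4, 62.8 and 76.1 CPM in NFIB mutant libraries. On the log2 scale the rises were 3.16 (SE 0.46, adjusted p = 0.00264) and 3.47 (SE 0.46, adjusted p = 0.00154). The spread within the mutants was small against this step.

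Tead4 (ENSMUSG00000030353) was the least expressed of the 4 factors, at 1.11, 0.787 and 0.266 CPM in TKO, 3.59, 13.6 and 2.70 CPM in CARM1 knockout and 11.7, 19.2 and 22.0 CPM in NFIB mutant libraries. It was the member in which the mutants lay furthest apart. Against TKO the log2 fold changes were 3.19 (SE 0.80, adjusted p = 0.0184) and 4.60 (SE 0.85, adjusted p = 0.00486), and without CARM1 knockout replicate 2 the first was 2.12. The difference between the mutants was -1.41 (95% interval -3.11 to 0.29, adjusted p = 0.609) and did not pass.

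The makeup of TEAD RNA therefore differed between TKO and mutant libraries. Per kilobase of exon, Tead1 made up 87.7, 87.7 and 94.9% of the summed RNA of the 4 TEAD genes in TKO, 55.8, 42.4 and 45.3% in CARM1 knockout and 46.6, 50.8 and 32.1% in NFIB mutant libraries. Tead2 rose from 1.76 to 6.98% in TKO to 24.6 to 40.0% in the mutants, and in NFIB mutant replicate 3 it held 33.8% and passed Tead1. In CPM not divided by length, Tead1 stayed above Tead2 in that library, at 223 against 82.7 CPM. The shares depend on the annotated exon lengths, such as 13570 bp for Tead1 and 4788 bp for Tead2. Tead3 took 2.81 to 5.24% in TKO and 10.9 to 24.4% in the mutants, and Tead4 0.542 to 1.19% and 1.73 to 11.95%. The summed level of the 4 genes was 13.6 to 25.8 CPM per kb in TKO and 43.2 to 59.7 CPM per kb in the mutants. Yap1 and Wwtr1 together came to 0.0434 to 0.0862 of the TEAD sum in TKO, and to 0.708 to 1.12 of it in the mutants. With 3 libraries against 3, an exact permutation test of such a share could not give a p under 0.1, so none is given.

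**Figure D2:**
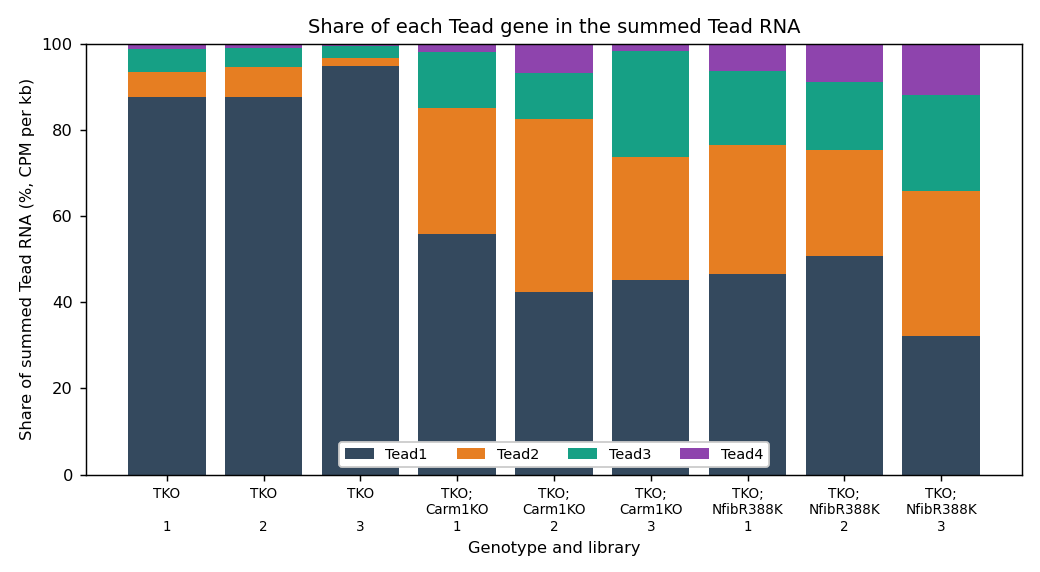
Share of each Tead gene in the summed Tead RNA of a library, in percent of CPM per kb of exon, with 1 bar for each of the 9 libraries. Tead1 fills 87.7 to 94.9% of the bars of TKO and 32.1 to 55.8% of those of the mutants.

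The cofactor Vgll3 (ENSMUSG00000091243, chromosome 16, 65815257 to 65866368, plus strand), a vestigial-like protein that binds TEAD factors, had the largest rise of the 10 genes in the fit of all libraries, a rank that passed to Ankrd1 without TKO replicate 2. It had 0.0961, 0.481 and 0.222 CPM in TKO, which were 2, 11 and 5 counts, then 139, 58.8 and 143 CPM in CARM1 knockout and 93.0, 112 and 97.5 CPM in NFIB mutant libraries. Vgll3 RNA rose by 8.68 (SE 0.63, adjusted p = 0.000349) and 8.51 (SE 0.63, adjusted p = 0.00028) on the log2 scale. Without TKO replicate 2 these values were 9.40 and 9.23, so the size of the change rests on few TKO reads while its direction does not.

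Ankrd1 (ENSMUSG00000024803, chromosome 19, 36111961 to 36120099, minus strand), a cardiac ankyrin repeat gene used widely as a YAP reporter, had 5, 20 and 0 counts in TKO, or 0.24, 0.875 and 0 CPM. In CARM1 knockout it had 76.1, 90.2 and 122 CPM, and in NFIB mutant libraries 17.6, 42.3 and 233 CPM. The NFIB mutant libraries were spread over a wider range than for any other member. Fitted changes on the log2 scale were 7.98 (SE 1.44, adjusted p = 0.00589) and 8.00 (SE 1.44, adjusted p = 0.00465). Without TKO replicate 2 they were 9.60 and 9.62, and without NFIB mutant replicate 3 the second was 6.30.

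Lats2 and Amotl2, the members that restrain YAP, rose with it. Lats2 (ENSMUSG00000021959, chromosome 14, 57689662 to 57758388, minus strand), a kinase that inactivates YAP and TAZ, had 3.99, 1.62 and 2.70 CPM in TKO, 99.7, 76.9 and 94.5 CPM in CARM1 knockout and 93.3, 142 and 80.9 CPM in NFIB mutant libraries. Its log2 fold changes were 5.03 and 5.25, each with a SE of 0.40 (adjusted p = 0.000425 and 0.000285). The annotation places Gm49361 on the same strand with 2955 shared exonic bases, and that gene is not among those counted, so the reads of both cannot be separated here.

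Amotl2 (ENSMUSG00000032531, chromosome 9, 102716672 to 102733418, plus strand), an angiomotin that binds YAP in the cytoplasm, was already present in TKO at 35.3, 48.8 and 20.4 CPM. It had 177, 182 and 348 CPM in CARM1 knockout and 124, 218 and 172 CPM in NFIB mutant libraries. The log2 fold changes of 2.76 and 2.30 (SE 0.42 each, adjusted p = 0.00328 and 0.0047) were the smallest of the called members.

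**Figure D3:**
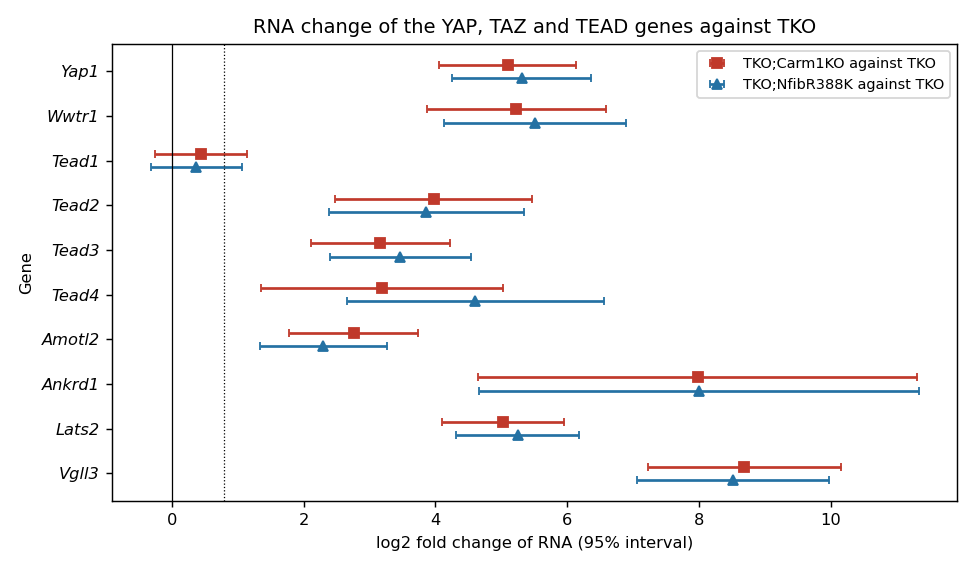
Log2 fold change of RNA against TKO for each gene, with 95% intervals from edgeR; squares are CARM1 knockout, triangles NFIB mutant, and the dotted line marks the threshold of 0.8. Only the intervals of Tead1 cross 0.

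In TKO the order of levels per kilobase of exon was Tead1 (18.2 CPM per kb), Amotl2 (5.54), Tead2 (1.08), Tead3 (0.889), Wwtr1 (0.790), Yap1 (0.487), Lats2 (0.397), Tead4 (0.200), Ankrd1 (0.129) and Vgll3 (0.0375). Only Tead1 and Amotl2 stood clear of the next gene, and the other neighbours overlapped between libraries. In CARM1 knockout Amotl2 (37.5), Ankrd1 (33.3), Wwtr1 (29.6), Tead1 (24.7), Tead2 (17.0), Yap1 (16.7), Vgll3 (15.98) and Lats2 (12.96) followed each other with overlap, with Tead3 (7.95) and Tead4 (1.84) below the rest. In NFIB mutant tumors Wwtr1 came first (36.0 CPM per kb), followed with overlap by Ankrd1 (33.8), Amotl2 (27.3), Tead1 (23.6), Yap1 (19.3), Tead2 (15.8), Lats2 (15.1) and Vgll3 (14.2), and then by Tead3 (9.85) and Tead4 (4.90). These orders depend on the exon lengths, which cover all annotated exons of a gene.

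Between CARM1 knockout and NFIB mutant tumors none of the 10 genes was called by edgeR, at an adjusted p of at least 0.609. None had an unadjusted p under 0.05, and DESeq2's Wald test called none of them. Over all genes edgeR called 0% in either direction, while 1414 had an unadjusted p under 0.05 and DESeq2 called 317 higher and 223 lower in CARM1 knockout. The median absolute difference between the mutants was 0.22 on the log2 scale for the 10 genes and 0.32 for all genes tested. The intervals were widest for Tead4 and Ankrd1, reaching -3.11 at the lower end for Tead4 and 2.36 at the upper end for Ankrd1. They were narrower for the other genes, such as -0.62 to 0.76 for Tead1 and -1.08 to 0.66 for Yap1. Differences within the interval of each gene cannot be judged from 3 libraries a genotype.

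Further genes of the pathway were read from 2 lists, also chosen with earlier results of these data known. Of 23 genes of the Hippo kinase cascade and its regulators, 21 were tested. Of these, 5 were higher in CARM1 knockout tumors and 7 in NFIB mutants, with 5 higher in both. Among all genes tested, 20.5 and 22.3% were called higher in the same order. The median log2 fold change of the list was 0.53 and 0.35, beside -0.03 and -0.05 over all genes tested. The largest rise was that of Ajuba, a LIM protein that binds LATS kinases, at 0.31 to 2.55 CPM in TKO and 27.7 to 137 CPM in the mutants (log2 fold changes 5.997 and 5.17, adjusted p = 0.00426 and 0.00521). Wwc2, a relative of KIBRA, changed by 4.36 and 4.06 (adjusted p = 0.00721 and 0.00708), and Frmd6, an upstream FERM domain protein, by 3.22 and 3.20 (adjusted p = 0.00247 and 0.0019).

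In contrast, Lats1, Nf2 and Vgll4 were not called in either mutant. Lats1, the other LATS kinase, had 88.5 to 122 CPM in TKO and 60.5 to 93.7 CPM in the mutants, with log2 fold changes of -0.32 and -0.58 (adjusted p = 0.223 and 0.0453, the second below the threshold of size). Nf2, which encodes merlin, changed by 0.14 and -0.06 (adjusted p = 0.553 and 0.807), and Vgll4, a TEAD-binding repressor of YAP, by -0.09 and -0.03 (adjusted p = 0.851 and 0.954). The only member of the list called lower was Amot in CARM1 knockout tumors, with a log2 fold change of -1.10 (adjusted p = 0.0573), and it was named after its value was seen.

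Of 19 YAP/TEAD target genes, a list that excludes the 10 members, 11 were higher in CARM1 knockout tumors and 11 in NFIB mutants, all 11 in both, and none was lower. Over all genes 20.5 and 22.3% were called higher and 18.3 and 23.5% lower. The median log2 fold change of the list was 3.57 and 3.55, beside -0.03 and -0.05 over all genes. Ccn1, a secreted matricellular protein gene, had 1.29 to 9.99 CPM in TKO and 151 to 679 CPM in the mutants (log2 fold changes 6.30 and 6.10, adjusted p = 0.00327 and 0.0027). Ccn2, the connective tissue growth factor gene, had 3.65, 0.656 and 0.576 CPM in TKO, 75.7, 71.7 and 112 CPM in CARM1 knockout and 9.30, 18.9 and 87.5 CPM in NFIB mutant libraries (5.73 and 4.57, adjusted p = 0.00827 and 0.0127). In the NFIB mutant libraries Ccn2 had the same order as Ankrd1, lowest in replicate 1 and highest in replicate 3. Axl, a receptor tyrosine kinase gene, changed by 5.87 and 6.23 (adjusted p = 0.00602 and 0.00406), and Ccdc80, an extracellular matrix gene, by 6.21 and 4.63 (adjusted p = 0.00126 and 0.00206). Several of these targets are also expressed by fibroblasts, of whose 8 markers 8 were called higher in CARM1 knockout tumors and 7 in NFIB mutants, and the share of each source was not tested.

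Chromatin at the genes was next compared peak by peak. For peaks the size required was 0.5 on the log2 scale, with the same edgeR test over 111116 peaks. Of the 111 peaks, 63 were higher in CARM1 knockout tumors and 69 in NFIB mutants, 63 of them in both, and 22 were lower in both. Over all peaks 38.7 and 39.3% were called higher and 32.4 and 34.0% lower. Every mutant library lay above every TKO library in 62 of the 111 peaks and below in 16, against 33.1 and 28.6% of all peaks tested. The median log2 fold change of the 111 peaks was 1.48 and 1.84, and over all peaks it was 0.22 in both comparisons. Peaks did not split evenly over the genes, since 21 of the 22 lower peaks lay in Tead1 and the last in Lats2. Outside Tead1, 53 of 69 peaks were higher in both mutants and 1 was lower. Scaled by library totals alone, the median of all peaks shifted by 0.57 in both comparisons, the share of calls that were higher went from 54.4 to 65.9% and from 53.6 to 64.3%, and 78 of the 111 peaks were higher and 16 lower for CARM1 knockout, against 80 and 15 for the NFIB mutant. Scaling on peaks at the starts of genes with RNA changes under 0.25 on the log2 scale shifted the medians by 0.41 and 0.49. The shares of higher calls were then 62.8 and 63.0%. Of the 111 peaks, 72 were higher and 18 lower for CARM1 knockout, against 78 and 18 for the NFIB mutant. No peak of the 10 genes was called between the mutants by edgeR or by DESeq2, with 5 at an unadjusted p under 0.05, and over all peaks edgeR called 0%, while DESeq2 called 523 higher and 537 lower in CARM1 knockout.

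The Yap1 promoter peak (chromosome 9, 8002766 to 8005237) had 4.65, 4.23 and 3.84 CPM in TKO, 25.7, 35.8 and 20.97 CPM in CARM1 knockout and 24.4, 27.5 and 26.6 CPM in NFIB mutant libraries. The groups were widely separated, with log2 fold changes of 2.69 and 2.62 (SE 0.24 each, adjusted p = 2.5e-05 and 2.45e-05). Of the 6 peaks of Yap1, 5 were higher in both mutants and none was lower. An intronic peak (7978646 to 7980091) had the largest mean rise over both mutants, from 0.351, 0.556 and 0.676 CPM in TKO to 7.52, 5.09 and 7.71 CPM in CARM1 knockout and 5.20, 1.80 and 11.9 CPM in NFIB mutant libraries (3.68 and 3.58, adjusted p = 0.000984 and 0.00101, the second 2.73 without NFIB mutant replicate 3).

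At Wwtr1, 12 of 13 peaks were higher in both mutants, and the remaining one, 105052 bp from the gene start, was not called. Its promoter peak (chromosome 3, 57572286 to 57577061) had 4.49, 5.10 and 10.8 CPM in TKO, 47.0, 72.1 and 46.6 CPM in CARM1 knockout and 51.3, 65.3 and 58.6 CPM in NFIB mutant libraries. Its rise was 3.03 and 3.11 on the log2 scale (SE 0.33 each, adjusted p = 6.81e-05 and 5.21e-05). The largest rise by the mean of both mutants was intronic (57487096 to 57488301), with log2 fold changes of 3.72 and 4.81 (adjusted p = 0.000441 and 0.00012).

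Tead1 was the exception in chromatin as in RNA. Its promoter peak (chromosome 7, 112678285 to 112680411) had 20.9, 20.9 and 32.0 CPM in TKO, 22.3, 24.4 and 27.5 CPM in CARM1 knockout and 20.3, 26.9 and 23.6 CPM in NFIB mutant libraries. The groups overlapped, and the log2 fold changes were 0.01 (95% interval -0.46 to 0.48) and -0.06 (95% interval -0.53 to 0.41), although library totals alone gave 0.56 and a call in CARM1 knockout. Along the gene body, however, 31 of 42 peaks were called in both mutants, 10 higher and 21 lower. The peak with the largest fall (112835326 to 112836871, in an intron) had 18.9, 23.4 and 13.4 CPM in TKO, 0.956, 0.614 and 0.653 CPM in CARM1 knockout and 0.867, 0.481 and 0.432 CPM in NFIB mutant libraries. It was thus 25.0-fold and 31.4-fold lower (log2 fold changes -4.64 and -4.97, adjusted p = 4.03e-05 and 2.75e-05). By the rule for named peaks the largest rise lay 85767 bp into the gene (112764960 to 112765211), where all TKO libraries were at 3 counts or fewer, which puts the rise at no less than 8.45-fold for CARM1 knockout and 11.6-fold for NFIB mutant tumors. Another intronic peak, taken after its values were seen (112813208 to 112814466), had 0.797, 0.587 and 1.06 CPM in TKO, 8.73, 10.1 and 6.14 CPM in CARM1 knockout and 6.58, 12.1 and 10.9 CPM in NFIB mutant libraries. Rising and falling peaks were therefore interleaved within 1 gene whose RNA was not called. The middle 300 bases of the peak that fell most are shown on the plus strand, and none of the 4 sets of letters occurred in them.
Tead1 intronic peak that fell, chr7:112835949-112836248 (plus strand, GRCm38): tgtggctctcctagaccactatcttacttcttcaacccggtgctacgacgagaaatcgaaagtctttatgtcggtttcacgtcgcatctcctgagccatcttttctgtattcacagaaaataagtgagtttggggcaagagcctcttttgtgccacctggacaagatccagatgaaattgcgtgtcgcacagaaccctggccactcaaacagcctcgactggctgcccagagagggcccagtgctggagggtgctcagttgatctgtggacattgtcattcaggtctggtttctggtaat

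**Figure D4:**
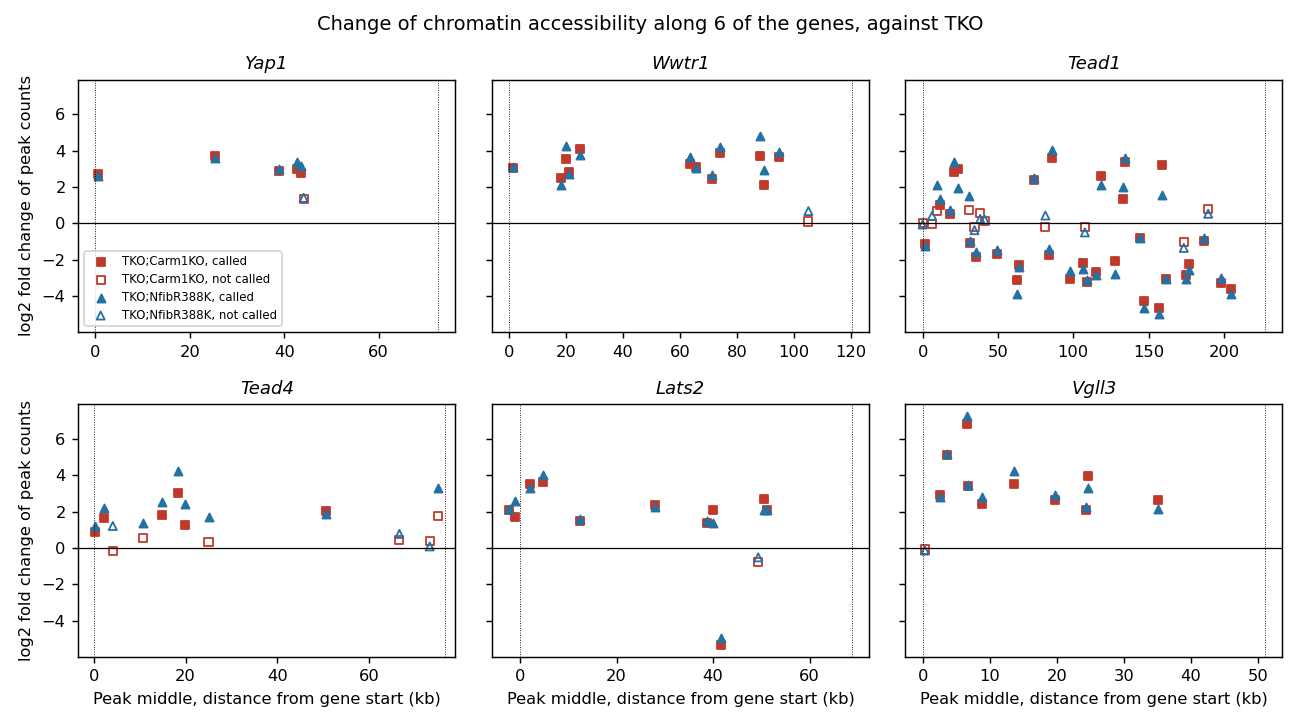
Log2 fold change of peak counts against TKO for each peak of 6 genes, by the distance of its middle from the gene start in kb; squares are CARM1 knockout, triangles NFIB mutant, filled where called, and dotted lines mark the gene start and end. Peaks of Tead1 lie on both sides of 0, and in Lats2 a single peak falls to -5.34 and -4.94.

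The other TEAD genes gained accessibility at their starts by less than the coactivators did. The Tead2 promoter peak had 5.04, 6.43 and 2.41 CPM in TKO, 12.1, 14.7 and 10.7 CPM in CARM1 knockout and 8.97, 10.92 and 10.95 CPM in NFIB mutant libraries (log2 fold changes 1.43 and 1.15, adjusted p = 0.00624 and 0.017). For Tead3 the promoter peak had 24.9, 23.9 and 21.4 CPM, 36.2, 37.7 and 34.8 CPM and 36.4, 42.0 and 40.7 CPM in the same order (0.63 and 0.76, adjusted p = 0.00296 and 0.001). Scaled with DESeq2 size factors the first of these was 0.45 and under the threshold of size. An intronic peak of Tead3, 9765 bp from the start, rose more, by 2.33 and 2.49 on the log2 scale (adjusted p = 5.69e-05 and 3.71e-05).

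The Tead4 promoter peak had 16.2, 22.6 and 14.8 CPM in TKO, 25.0, 46.5 and 28.0 CPM in CARM1 knockout and 38.1, 46.6 and 38.6 CPM in NFIB mutant libraries (0.89 and 1.20, adjusted p = 0.00985 and 0.00202). Among the CARM1 knockout libraries replicate 2 was highest, as it was for Tead4 RNA. Of its 12 peaks, 6 were higher in CARM1 knockout tumors and 9 in NFIB mutants. A peak in an intron, 18451 bp from the start, had 0.542, 1.33 and 0.211 CPM in TKO, 4.70, 5.42 and 7.21 CPM in CARM1 knockout and 14.2, 14.6 and 11.3 CPM in NFIB mutant libraries. Every NFIB mutant library was above every CARM1 knockout library there, but the difference of -1.21 (95% interval -2.32 to -0.10) had an adjusted p of 0.79 over all peaks. Against TKO its log2 fold changes were 3.03 and 4.24 (adjusted p = 0.00106 and 0.000194), or 3.90 and 5.11 without TKO replicate 2.

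All 4 peaks of Ankrd1 were higher in both mutants. Its promoter peak (chromosome 19, 36118893 to 36120776) was low in TKO at 0.638, 0.525 and 1.01 CPM, and had 14.7, 18.2 and 22.5 CPM in CARM1 knockout and 12.9, 17.5 and 36.0 CPM in NFIB mutant libraries. The log2 fold changes of 4.68 and 4.94 (SE 0.46 each, adjusted p = 4.16e-05 and 2.88e-05) were the largest of the promoter peaks. By replicate number, the order of the libraries within each mutant was that of Ankrd1 RNA, with replicate 3 highest in both assays. The study states that both assays used the same tumor biopsies, but the labels do not say that equal numbers in the 2 assays mark the same tumor.

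At Vgll3 the rise in RNA came with no detected change at the start. Its promoter peak (chromosome 16, 65814536 to 65816671) was already open in TKO at 30.9, 43.1 and 34.7 CPM, and had 31.4, 36.7 and 34.6 CPM in CARM1 knockout and 24.9, 34.8 and 39.2 CPM in NFIB mutant libraries. Its log2 fold changes were -0.08 (95% interval -0.51 to 0.35) and -0.14 (95% interval -0.57 to 0.29), and when libraries were scaled by totals alone the first turned to 0.51 and was called. The other 10 peaks of the gene were all higher in both mutants. Among them an intronic peak 3673 bp from the start (65818178 to 65819683) had 0.414, 0.340 and 0.592 CPM in TKO, 15.6, 14.1 and 16.2 CPM in CARM1 knockout and 11.5, 16.2 and 19.9 CPM in NFIB mutant libraries. It rose 34.2-fold and 35.5-fold, with log2 fold changes of 5.09 and 5.15 (SE 0.37 each, adjusted p = 1.02e-05 and 8.28e-06). The middle 300 bases of this peak, on the plus strand, hold the AP-1 letters at base 177 and the TEAD letters at base 234, in capitals.
Vgll3 intronic peak that rose, chr16:65818781-65819080 (plus strand, GRCm38): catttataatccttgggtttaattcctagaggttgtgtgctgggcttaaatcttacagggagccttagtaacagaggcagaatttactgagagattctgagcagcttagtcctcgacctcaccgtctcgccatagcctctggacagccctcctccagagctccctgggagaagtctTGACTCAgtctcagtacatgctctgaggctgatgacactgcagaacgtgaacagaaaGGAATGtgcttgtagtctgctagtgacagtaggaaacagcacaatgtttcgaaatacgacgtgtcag

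Amotl2 showed the same combination on a smaller scale. The peak at its start (chromosome 9, 102716776 to 102719658) had 40.8, 50.6 and 46.6 CPM in TKO, 44.4, 72.6 and 52.0 CPM in CARM1 knockout and 47.2, 60.5 and 51.6 CPM in NFIB mutant libraries (log2 fold changes 0.29 and 0.21, adjusted p = 0.192 and 0.344). It was called higher under 3 other scalings, at 0.66 to 0.88 for CARM1 knockout and 0.58 to 0.78 for the NFIB mutant. A peak 14251 bp downstream, at the start of another annotated transcript, rose by 2.16 and 2.07 on the log2 scale (adjusted p = 0.0011 and 0.00123).

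For Lats2, 10 of 12 peaks were higher in both mutants. The peak nearest to the annotated gene start was small, at 0.0845 to 0.216 CPM in TKO and 0.435 to 1.52 CPM in the mutants (1.70 and 2.61, adjusted p = 0.024 and 0.00282). A stronger peak covers the first RefSeq start of the gene (57744642 to 57747138) and was taken after its values were seen, with 9.75, 7.23 and 8.37 CPM in TKO, 20.5, 28.0 and 22.2 CPM in CARM1 knockout and 22.7, 29.5 and 23.1 CPM in NFIB mutant libraries (1.48 and 1.57). The largest rise, 4648 bp from the start, was 3.63 and 4.02 on the log2 scale (adjusted p = 0.00146 and 0.00082), or 5.24 and 5.62 without TKO replicate 1.

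A single Lats2 peak went the other way. It lies in an intron (chromosome 14, 57716125 to 57717493), at a place where Gm49361 is also annotated, and had 36.7, 29.9 and 24.2 CPM in TKO, 0.517, 0.979 and 0.726 CPM in CARM1 knockout and 1.11, 1.01 and 0.844 CPM in NFIB mutant libraries. It was 40.5-fold and 30.7-fold lower in the mutants (log2 fold changes -5.34 and -4.94, SE 0.36 each, adjusted p = 8.87e-06 and 8.84e-06), while the RNA of the gene was 32.6-fold and 38.0-fold higher. In TKO this was the most accessible of the 12 peaks. Its middle 300 bases, on the plus strand, hold none of the 4 sets of letters.
Lats2 intronic peak that fell, chr14:57716660-57716959 (plus strand, GRCm38): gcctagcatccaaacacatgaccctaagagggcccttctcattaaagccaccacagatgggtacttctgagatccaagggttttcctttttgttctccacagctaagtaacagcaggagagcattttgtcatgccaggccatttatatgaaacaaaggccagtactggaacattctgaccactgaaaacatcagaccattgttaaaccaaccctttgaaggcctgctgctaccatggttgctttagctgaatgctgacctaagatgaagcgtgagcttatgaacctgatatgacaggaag

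**Figure D5:**
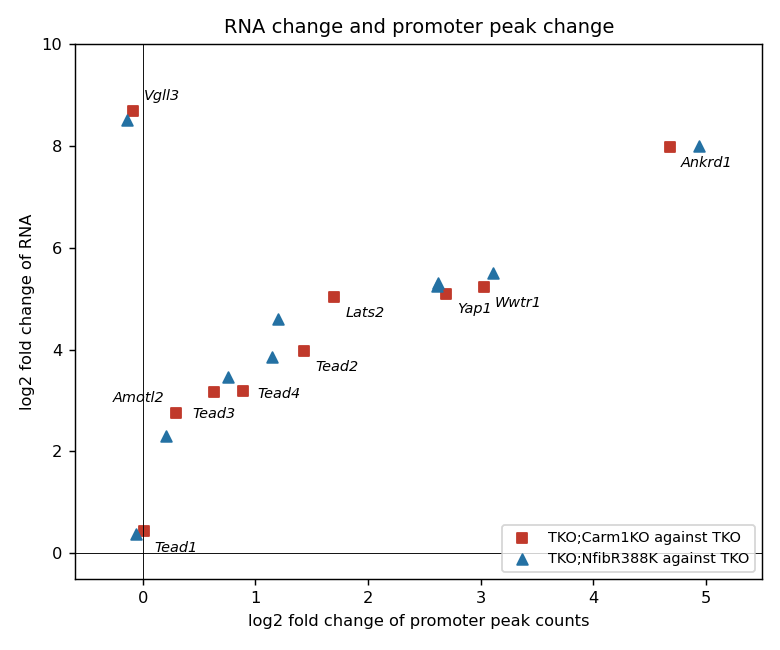
Log2 fold change of RNA against that of the promoter peak for each gene, with squares for CARM1 knockout and triangles for NFIB mutant tumors, both against TKO. Vgll3 has an RNA change of 8.68 and 8.51 with promoter changes of -0.08 and -0.14, whereas Ankrd1 is high on both axes and Tead1 is near 0 on both.

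The letters in the middle 300 bases of the peaks were counted for the 10 genes and for all peaks. GGAATG or its reverse occurred in 27.9% of the 111 peaks and in 19.0% of all peaks, in 20 of the 63 peaks that were higher in both mutants (31.7%, against 25.2% of all such peaks) and in 5 of the 22 that were lower (22.7%, against 4778 of 34171 of all such peaks). The AP-1 letters occurred in 22 of the 63 higher peaks (34.9%) and in 1 of the 22 lower peaks (4.55%), beside 41.7 and 7.89% of all higher and lower peaks. The NFI half-site was in 19.0% of the higher and 27.3% of the lower peaks of the 10 genes, beside 19.2 and 27.2% of all. For the E-box the shares were 14.3 and 27.3%, beside 18.8 and 28.1%. For each of the 4 sets of letters, the higher and the lower peaks of the 10 genes stood in the same order as over all peaks. Of the 22 lower peaks, however, 21 lay in Tead1, so their shares describe mostly that gene. Peaks within a gene are not independent, and the motifs were chosen with the changes of the peaks known.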

How the data were processed

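RNA-seq and ATAC-seq of 3 tumors per genotype were analysed from deposited counts. For RNA, the authors used Trim Galore for trimming, HISAT2 for alignment to mm10 and HTSeq for counts per gene. For ATAC-seq they mapped reads with Bowtie2, removed duplicates, called peaks (Genrich per the labels, MACS2 per the methods) and merged them into 1 set, and the deposited counts per peak were made with featureCounts 1.6.3, which counted single reads. A shift of reads for the transposase is not given in the sources used here. Whether gene counting used strand is also not given, so opposite-strand overlaps are uncertain.

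The 5 summary rows of the RNA table were left out. In TKO, 10.0 to 12.2% of reads fell outside genes, against 3.65 to 5.17% in the mutants. Columns named C, KO and N were read as TKO, TKO;Carm1KO and TKO;NfibR388K. Replicates are separate animals, and no 2 libraries agreed within sampling noise. edgeR 4.0.16 (R 4.3.3) fitted all 9 libraries of an assay with TMM scaling, filterByExpr and robust quasi-likelihood tests, with p-values adjusted by Benjamini-Hochberg over all 15514 genes or 111116 peaks, and 95% intervals from the fit. Genes were called at an adjusted p under 0.1 and a log2 fold change of at least 0.8, peaks at 0.5. The scripts recovered known changes in simulated data in which few features changed. This does not test the scaling where many features change, as they did here. DESeq2 1.42.0, other scalings and filters, the replicate number as a block and leaving out each library were alternatives. Lengths, positions and overlaps came from GENCODE M21 and promoters from RefSeq (GRCm38.p6). The length of a gene was that of all its annotated exons together, whichever transcripts were expressed.

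The genes and lists were chosen with earlier results of these data known. All 10 genes were named, with Carm1 and Nfib as checks. From each pathway list the 3 largest rises and falls called in both mutants were named, with Ccn1, Ccn2, Lats1, Nf2 and Vgll4 whatever their values. Per gene the named peaks were the strongest within 1000 bp of the start and the largest rise and fall called in both mutants with a mean of at least 1 CPM in the higher genotype. Motifs were chosen after the values were seen.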

Additional observations from a re-analysis of the deposited data

How the results depend on the processing

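The count of 9 genes called higher in each mutant was the same under DESeq2, other scalings, no filter, fits of only 2 genotypes and each left-out library (9 in each), and it was 6 when at least 10 counts were required in every library, since Ankrd1, Tead4 and Vgll3 were then not tested. Of the 111 peaks, 85 were called for CARM1 knockout and 91 for the NFIB mutant. With at least 10 counts in every library these were 49 and 49, of which 30 and 32 were higher, because fewer peaks were tested. Within 1000 bp of a gene start 8 were called in each mutant, 8 of them higher and 0 lower, while the strongest start peaks of Tead1, Amotl2 and Vgll3 were not called. Leaving out 1 library gave 77 to 85 calls in CARM1 knockout (58 to 63 higher, 18 to 23 lower) and 84 to 93 in NFIB mutant tumors (65 to 71 and 18 to 22). The promoter peak of Vgll3 in CARM1 knockout turned from -0.08 to 0.51 on library totals alone, and the cause was not tested. Whether equal replicate numbers mark paired animals across genotypes was not settled. Within an assay, the correlation of their deviations from the group means was -0.30 to 0.12 in RNA and -0.14 to 0.12 in ATAC-seq. In each assay 1 of 9 pairs was over 0.1. With 3 libraries per genotype these values cannot exclude a shared litter or batch, and pairing between the 2 assays was not computed. With the replicate block 9 genes were called in each mutant, and 81 and 90 peaks. None of the 10 genes or 111 peaks was called between the mutants under any of these alternatives. Few reads of Ankrd1, Tead4 and Vgll3 in TKO limit the size of their fold changes.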
